A study of Mus musculus with 9 samples.

Results

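The DNA damage checkpoint and repair genes described here are 38 genes that sense broken or mispaired DNA, halt the cell cycle or mend the lesion. A probe set, the group of array probes that reads 1 transcript, was used if it was annotated to 1 of these symbols alone, and of several the brightest, by mean log2 intensity, was taken for the gene. Of the 38 genes, 37 had such a probe set, out of 18193 genes named on the array, and all 37 passed the filter on dim probe sets, as did 12652 genes in all. Xrcc2 lacked one and is not analysed here.

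RNA of flow-sorted CD45.1+LKS+ bone marrow cells of C57BL/6 mice, 8 weeks old by their labels, was hybridised to 9 Affymetrix Mouse Genome 430 2.0 arrays. LKS+ cells lack markers of mature blood lineages, carry Kit and Sca-1, and include the blood-forming stem cells and their earliest progeny; the series calls them normal cells taken at different stages of acute myeloid leukemia. There were 3 groups of 3 replicates: leukemic mice at day 14, leukemic mice at day 7, and control mice. The labels give no day for the controls, so leukemia and elapsed time cannot be told apart in the comparisons with them, nor stage and elapsed time between day 14 and day 7. How leukemia was induced, what the CD45.1 marker distinguished in the mice, and whether a replicate is 1 animal or a pool are not given in the sources used here; the p-values measure the spread between these arrays.

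Cells use different routes for different lesions. Homologous recombination copies a sister chromatid to repair a double-strand break, which ties it to the phases of the cell cycle in which a copy exists, whereas end joining seals the break ends directly in any phase. The Fanconi anemia proteins open DNA crosslinks, mismatch repair corrects copying errors, base excision repair removes single damaged bases, and the checkpoint kinases ATM and ATR pass the alarm to CHK2 and CHK1. Blood stem cells depend on these routes, as the marrow failure of patients with Fanconi anemia shows, and several of the genes are transcribed mainly in dividing cells under E2F factors.

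At day 14 the repair genes were lower than in control cells across all 6 pathways, while at day 7 all but 1 did not pass the test against control. In the fit over all genes (limma with Benjamini-Hochberg adjustment, n = 3 arrays per group), 34 of the 37 passed an adjusted p of 0.05 as lower at day 14 than in control and 0 as higher. Over all genes tested 34.1% were lower and 18.3% higher. The 3 genes that did not pass, Fancc, Fancd2 and Fancm, belong to the Fanconi pathway and also had negative changes. The median log2 change of the 37 was -0.60, with a range from -1.58 to -0.15, against a median of -0.06 over all genes tested. In RNA from bulk samples, fewer cells of a type and less RNA per cell cannot be told apart.

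**Figure D1:**
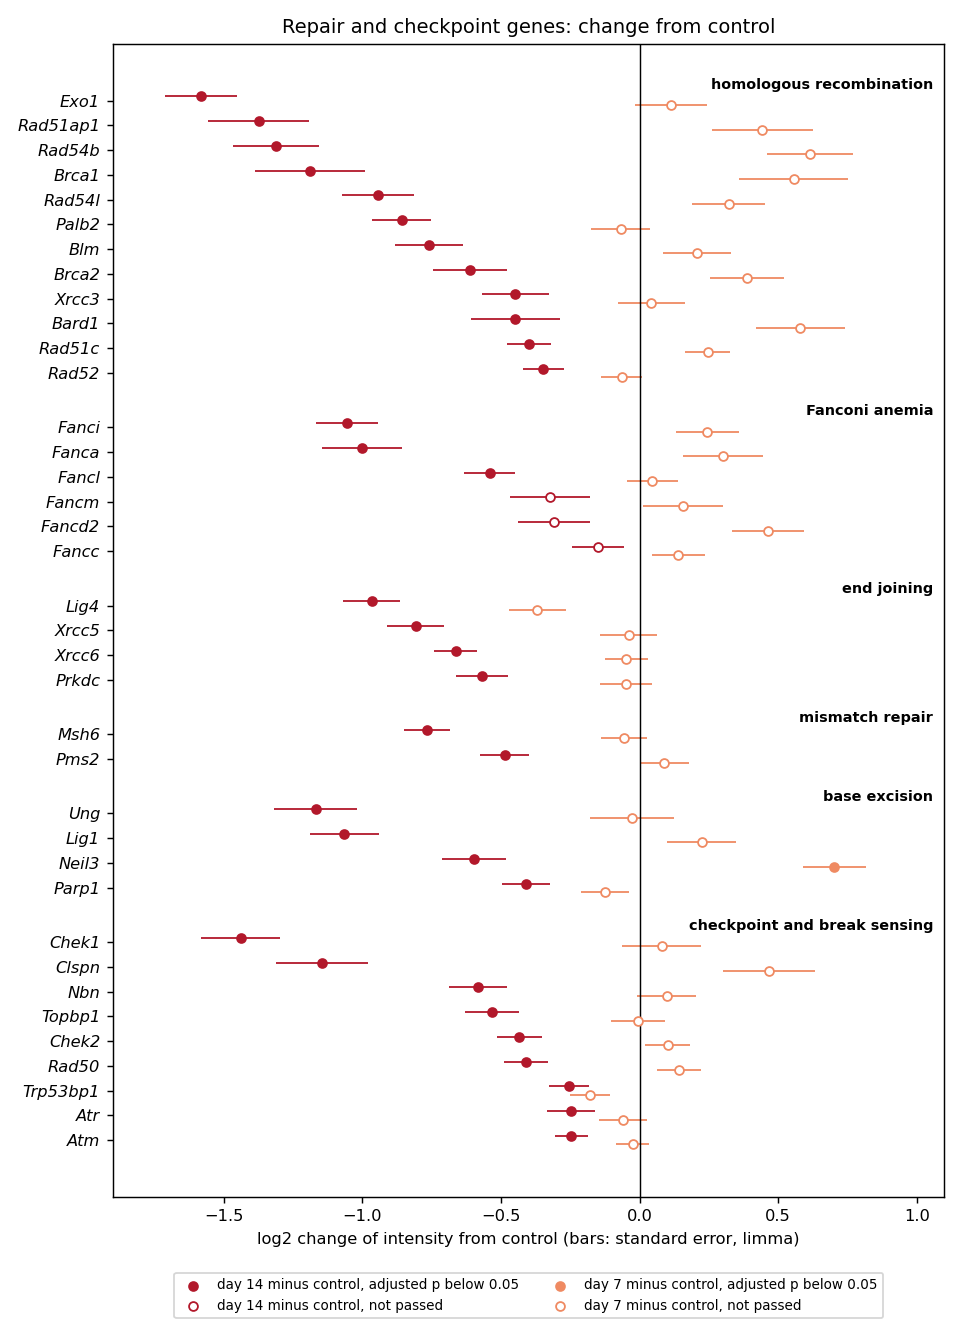
Log2 change of each of the 37 genes, grouped by repair pathway, for day 14 minus control and day 7 minus control. Points are limma estimates with bars of 1 standard error, and filled points passed an adjusted p of 0.05; at day 14 all estimates lie left of 0, and at day 7 Neil3 alone is filled.

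Promoter sequences are shown for the genes with the largest changes at day 14 that had a RefSeq window (build GRCm38.p6, 250 bases before to 50 bases after the transcription start), since many of the 37 moved together. The windows are chr9:36726609-36726908 (minus strand) for Chek1, chr6:126939538-126939837 (minus strand) for Rad51ap1, chr11:101551906-101552205 (minus strand) for Brca1, chr5:114130185-114130484 (plus strand) for Ung and chr4:126556730-126557029 (plus strand) for Clspn. They read 5′ to 3′ along the gene, and capitals mark matches on either strand to the E2F-type words, each 1 of TTCCCGC or else TTCGCGC or else TTGCCGC or else TTGGCGC:
Chek1: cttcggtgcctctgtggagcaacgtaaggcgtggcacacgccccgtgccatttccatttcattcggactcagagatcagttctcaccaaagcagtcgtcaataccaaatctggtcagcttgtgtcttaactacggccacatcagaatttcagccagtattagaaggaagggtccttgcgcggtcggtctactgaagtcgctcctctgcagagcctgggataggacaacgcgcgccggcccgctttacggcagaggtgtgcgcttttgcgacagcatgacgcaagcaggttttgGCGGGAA
Rad51ap1: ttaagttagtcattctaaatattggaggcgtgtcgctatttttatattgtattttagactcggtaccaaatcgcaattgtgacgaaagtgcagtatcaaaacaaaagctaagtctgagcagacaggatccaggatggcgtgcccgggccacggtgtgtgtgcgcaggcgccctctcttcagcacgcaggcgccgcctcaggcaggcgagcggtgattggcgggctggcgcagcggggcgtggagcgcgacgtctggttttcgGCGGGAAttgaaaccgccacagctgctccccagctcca
Brca1: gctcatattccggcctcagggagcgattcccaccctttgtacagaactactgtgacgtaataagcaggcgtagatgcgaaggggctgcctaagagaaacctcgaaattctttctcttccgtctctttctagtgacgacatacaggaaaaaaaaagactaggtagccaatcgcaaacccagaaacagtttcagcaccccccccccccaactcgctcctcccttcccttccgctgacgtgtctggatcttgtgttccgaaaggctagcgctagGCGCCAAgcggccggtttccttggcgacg
Ung: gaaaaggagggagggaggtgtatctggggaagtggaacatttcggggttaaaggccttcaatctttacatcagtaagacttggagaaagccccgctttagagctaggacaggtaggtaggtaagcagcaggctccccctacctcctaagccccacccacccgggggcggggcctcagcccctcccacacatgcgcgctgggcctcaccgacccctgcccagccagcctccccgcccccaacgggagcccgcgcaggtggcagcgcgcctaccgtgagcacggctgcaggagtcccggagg
Clspn: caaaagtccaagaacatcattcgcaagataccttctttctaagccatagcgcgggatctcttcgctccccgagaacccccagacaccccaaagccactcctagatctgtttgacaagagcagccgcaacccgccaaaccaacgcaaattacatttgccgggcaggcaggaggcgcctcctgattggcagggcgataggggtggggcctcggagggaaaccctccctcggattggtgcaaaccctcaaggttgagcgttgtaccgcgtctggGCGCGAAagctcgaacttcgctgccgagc

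Of the 31 repair genes with a window, 19 (61.3%) held at least 1 of these 7-letter words, against 18.8% of the 10252 tested genes with a window. In the 5 windows printed, Chek1, Rad51ap1, Brca1 and Clspn held a match and Ung held none. The longer words that begin with a further T (TTTCCCGC, TTTCGCGC, TTTGCCGC and TTTGGCGC), which overlap the shorter ones, were found in 9 repair genes (29.0%) and in 4.6% of tested genes. The word CCAAT stood in 16 (51.6%), against 42.4% of tested genes, and TTTGAA in 1 (3.23%), against 14.1%. Among the repair genes the 7-letter words were about as frequent in those whose change at day 14 was at or below the median of the 37 (11 of 17, 64.7%) as in those above it (8 of 14, 57.1%). These matches are counts of letters and carry no measurement of binding.

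Homologous recombination was lower at day 14 than in control in all 12 of its measured genes, with a median log2 change of -0.81. Exo1, the nuclease that trims back break ends, had the largest change of the 37. Its intensity was 31.2, 37.5 and 30.6 on the 3 day 14 arrays, 114, 109.7 and 96.8 at day 7, and 88.0, 121 and 89.7 in control. Every day 14 array lay below every other array, while day 7 and control overlapped. Exo1 fell by 1.58 on the log2 scale at day 14 (SE 0.13, adjusted p = 1.5e-05, limma, n = 3), and a dimmer Exo1 probe set gave -1.03. That probe set averaged 4.32 at day 14 and 12.8 in control, both below the filter on dim probe sets, so the size of its change is not known.

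Rad51ap1, which promotes strand pairing during recombination, read 88.5, 133 and 119 at day 14, 437, 394 and 356 at day 7, and 278, 376 and 234 in control. Rad54b, a motor protein that remodels chromatin during strand exchange, read 11.6, 18.1 and 14.4 at day 14, 61.2, 53.4 and 50.9 at day 7, and 31.9, 42.2 and 34.4 in control. In both genes the day 14 arrays were separate from the rest, and for Rad54b 2 of them lay below the filter on dim probe sets. The log2 changes from control at day 14 were -1.37 for Rad51ap1 (SE 0.18, adjusted p = 0.00021, limma, n = 3) and -1.31 for Rad54b (SE 0.16, adjusted p = 0.00011). For Rad54b the day 7 arrays also lay above all controls, but its day 7 change of 0.61 did not pass (adjusted p = 0.062, limma, n = 3). A lower-reading Rad51ap1 probe set gave a day 14 change of -0.77.

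Brca1 encodes the ubiquitin ligase subunit that steers breaks toward recombination, and Brca2 acts in the strand exchange that follows. Brca1 read 77.5, 125 and 126 at day 14, 401, 352 and 325 at day 7, and 217, 312 and 213 in control. Its 3 groups did not overlap, in the order day 14, control, day 7. The day 14 change was -1.19 (SE 0.20, adjusted p = 0.00075, limma, n = 3) and the day 7 change of 0.56 did not pass (adjusted p = 0.16). Of 3 further Brca1 probe sets, 2 gave -0.96 and -1.07 at day 14 and the other 0.34, which did not pass (adjusted p = 0.091). The first 2 averaged 9.96 and 15.2 at day 14, below and near the filter on dim probe sets, which limits those sizes. Brca2 read 134, 156 and 146 at day 14, 312, 281 and 277 at day 7, and 217, 276 and 181 in control, with a day 14 change of -0.61 (SE 0.13, adjusted p = 0.0033, limma, n = 3).

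The partners of these genes changed less evenly. Palb2, which bridges BRCA1 and BRCA2, read 101, 116 and 91.9 at day 14, 179, 183 and 169.7 at day 7, and 175, 216 and 169.7 in control, a change of -0.86 at day 14. Bard1, the partner subunit of BRCA1, read 9.68, 12.9 and 10.9 at day 14, which is not well above background, 29.9, 19.6 and 19.7 at day 7, and 14.8, 14.2 and 16.5 in control. Only 2 control arrays exceeded the filter on dim probe sets, so its control level is near background too. Bard1 was therefore at least 1.01-fold lower at day 14 than in control (adjusted p = 0.038, limma, n = 3), and that call was lost in 10 of 19 other settings. Rad54l, the other RAD54-type motor, changed by -0.94 and Blm, the helicase that dissolves joined chromosomes, by -0.76. Rad52, Rad51c and Xrcc3, further recombination factors, had the smaller changes of -0.35, -0.40 and -0.45. For Rad51c a dimmer probe set gave -1.004. It averaged 7.88 at day 14, below the filter on dim probe sets, and 15.8 in control, near that filter, so the size is not well measured.

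Of the Fanconi genes 3 of 6 (50%) were lower at day 14 than in control, against 34.1% of all genes tested. Their median log2 change was -0.43. Fanci, a subunit of the clamp that is ubiquitinated at a crosslink, read 67.5, 72.8 and 61.1 at day 14, 178, 172 and 147 at day 7, and 132, 163 and 126 in control. Its partner in that clamp, Fancd2, read 28.5, 24.1 and 28.8 at day 14, 54.0, 46.3 and 39.4 at day 7, and 36.1, 36.1 and 28.8 in control. Fanci had no overlap between day 14 and either other group. The day 14 arrays of Fancd2 also lay below all controls, but barely: the highest read 28.76 and the lowest control 28.78. Fanci fell by 1.05 on the log2 scale (SE 0.11, adjusted p = 6e-05, limma, n = 3), and the Fancd2 change of -0.31 (SE 0.13) did not pass, with an adjusted p of 0.067. The other tested Fancd2 probe set passed both as lower at day 14 (-0.63, adjusted p = 0.00094, limma over all probe sets, n = 3) and as higher at day 7 (0.64, adjusted p = 0.016).

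Fanca and Fancl are parts of the core complex that ubiquitinates this clamp, Fancl being its ligase. Fanca read 41.0, 59.2 and 55.9 at day 14, 141, 133 and 109 at day 7, and 99.4, 116 and 95.1 in control, and it changed at day 14 by -1.002 (SE 0.14, adjusted p = 0.00034, limma, n = 3). Its other tested probe set gave 0.07, at means of 16.3 at day 14, 19.5 at day 7 and 15.5 in control. These lie near the filter on dim probe sets, so the size is not well measured. Fancl read 181, 198 and 232 at day 14, 294, 298 and 321 at day 7, and 286, 313 and 286 in control, a change of -0.54 (adjusted p = 0.00085). Fancc, another core subunit, read 67.6, 66.8 and 74.9 at day 14, 88.9, 88.5 and 78.4 at day 7, and 88.5, 73.5 and 70.9 in control, so that day 14 and control overlapped. Its day 14 change of -0.15 did not pass (adjusted p = 0.21, limma, n = 3), and a dimmer Fancc probe set was higher at day 14 than in control, by 0.42 (adjusted p = 0.0018). Fancm, the translocase that brings the core complex to DNA, overlapped likewise, with a change of -0.32 (adjusted p = 0.083).

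All 4 end joining genes were lower at day 14 than in control, with a median log2 change of -0.74. Xrcc5 and Xrcc6 encode the Ku subunits that cap a broken end, and Prkdc the DNA-dependent kinase that Ku recruits. Xrcc5 read 83.5, 75.1 and 84.1 at day 14, 127, 154 and 133 at day 7, and 138, 162 and 127 in control. Xrcc6 read 284, 276 and 297 at day 14, 395, 453 and 469 at day 7, and 441, 438 and 481 in control. For both, the day 14 arrays lay below all 6 others, which were mixed. The changes were -0.81 for Xrcc5 (SE 0.10, adjusted p = 0.00017, limma, n = 3) and -0.66 for Xrcc6 (SE 0.08, adjusted p = 9.8e-05).

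Prkdc changed by -0.57 at day 14 (adjusted p = 0.00072, limma, n = 3). Lig4, the ligase that closes the joined ends, read 9.45, 11.6 and 9.61 at day 14, 13.9, 15 and 17.4 at day 7, and 21.1, 19.6 and 19.0 in control. The groups stepped down without overlap through control, day 7 and day 14, and the day 14 arrays were not well above background. Lig4 was at least 1.33-fold lower at day 14 than in control (adjusted p = 5.8e-05, limma, n = 3), and its day 7 change of -0.37 was the lowest of the 37 but did not pass (adjusted p = 0.081).

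Both mismatch repair genes were lower at day 14 than in control. Msh6, which recognises the mispaired base, read 390.3, 409 and 426 at day 14, 686, 683 and 635 at day 7, and 629.9, 777 and 684 in control. Pms2, which nicks the new strand, read 165, 193 and 194 at day 14, 298, 282 and 245 at day 7, and 252, 267 and 253 in control. The day 14 arrays were separate for both, with log2 changes of -0.77 for Msh6 (SE 0.08, adjusted p = 6.1e-05, limma, n = 3) and -0.49 for Pms2 (SE 0.09, adjusted p = 0.0013).

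Base excision repair was lower at day 14 in all 4 genes, with a median log2 change of -0.83. Ung, the glycosylase that cuts out uracil, read 124, 176 and 136 at day 14, 330.1, 313 and 309 at day 7, and 309, 402 and 273 in control. Lig1, which seals replicated and repaired strands, read 348, 475 and 420.2 at day 14, 1084, 1030.5 and 908 at day 7, and 875, 961 and 756 in control. Neither gene had a day 14 array within reach of the other groups. Ung fell by 1.17 on the log2 scale (SE 0.15, adjusted p = 0.00017, limma, n = 3) and Lig1 fell by 1.06 (SE 0.12, adjusted p = 0.0001).

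Neil3, a glycosylase for oxidised bases that is made in dividing cells, read 73.8, 99.6 and 87.1 at day 14, 228, 217 and 193 at day 7, and 123, 145 and 125 in control. The 3 groups were fully separate. Neil3 was lower at day 14 than in control by 0.60 (log2 change -0.60, SE 0.11, adjusted p = 0.0017, limma, n = 3) and higher at day 7 by 0.70 (SE 0.11, adjusted p = 0.015). By the brightest probe sets it was the single gene of the 37 that passed in both directions. Its other tested probe set gave -1.05 at day 14 and 0.26 at day 7, where it did not pass (adjusted p = 0.48). Parp1, which marks strand breaks with poly(ADP-ribose), read 490.4, 589.7 and 569 at day 14, 714, 688 and 607 at day 7, and 725, 699 and 762 in control, with a day 14 change of -0.41 (adjusted p = 0.0032). A further Parp1 probe set averaged 543 at day 14, 537 at day 7 and 567 in control. Its day 14 change of -0.06 did not pass (adjusted p = 0.51, limma over all probe sets, n = 3), while the others gave -0.41 and -0.75.

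All 9 checkpoint and break sensing genes were lower at day 14 than in control, but their sizes fell into a wide range, with a median of -0.43. The ATR to CHK1 branch, which guards stalled replication forks, held the largest. Chek1, its effector kinase, read 106, 164 and 139 at day 14, 401, 390.3 and 359.6 at day 7, and 354, 411 and 327 in control. Clspn, the claspin adaptor that presents CHK1 to ATR, read 83.8, 131 and 115 at day 14, 351, 317 and 323 at day 7, and 218, 298 and 209.7 in control. The day 14 arrays were separate in both genes, and for Clspn the day 7 arrays also lay above all controls. Chek1 fell by 1.44 (SE 0.14, adjusted p = 4e-05, limma, n = 3) and Clspn fell by 1.15 (SE 0.17, adjusted p = 0.00035).

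The kinase at the head of that branch had a smaller change. Atr read 226, 255 and 245 at day 14, 307, 270.3 and 251 at day 7, and 270.3, 307 and 283 in control, a day 14 change of -0.25 (SE 0.09, adjusted p = 0.037, limma, n = 3) whose call was lost in 11 of 20 other settings. Its activator Topbp1 read 602, 755 and 657 at day 14, 1015, 992 and 887 at day 7, and 925, 1066 and 918 in control, a change of -0.53. Atm, the kinase that answers double-strand breaks, read 293, 299.7 and 296 at day 14, 365, 337 and 335 at day 7, and 343, 363 and 349 in control. Atm thus changed by -0.25 (SE 0.06, adjusted p = 0.0062) with little spread between arrays.

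Of the genes around ATM, Nbn and Rad50 belong to the complex that holds break ends, and Nbn read 148, 166 and 191 at day 14, 283, 252 and 273 at day 7, and 242, 284 and 231 in control. Nbn changed by -0.58 (adjusted p = 0.0013, limma, n = 3), Rad50 by -0.41 and Chek2, the effector kinase of ATM, by -0.43. Trp53bp1 encodes 53BP1, which protects break ends from resection. It read 1077, 1055 and 1080.2 at day 14, 1137, 1162 and 1089 at day 7, and 1237, 1192 and 1414 in control, a change of -0.26 (adjusted p = 0.013). Dimmer Trp53bp1 probe sets ranged from -0.94 (adjusted p = 0.013, limma over all probe sets, n = 3) to -0.12, which did not pass (adjusted p = 0.49). With arrays set to an equal 75th percentile, the day 14 calls of Atm, Atr, Bard1 and Trp53bp1 were lost. Under that scaling the median of all tested genes was 0.06 and the median of the 37 was -0.48, and 30 remained lower, against 23.2% of all genes.

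**Figure D2:**
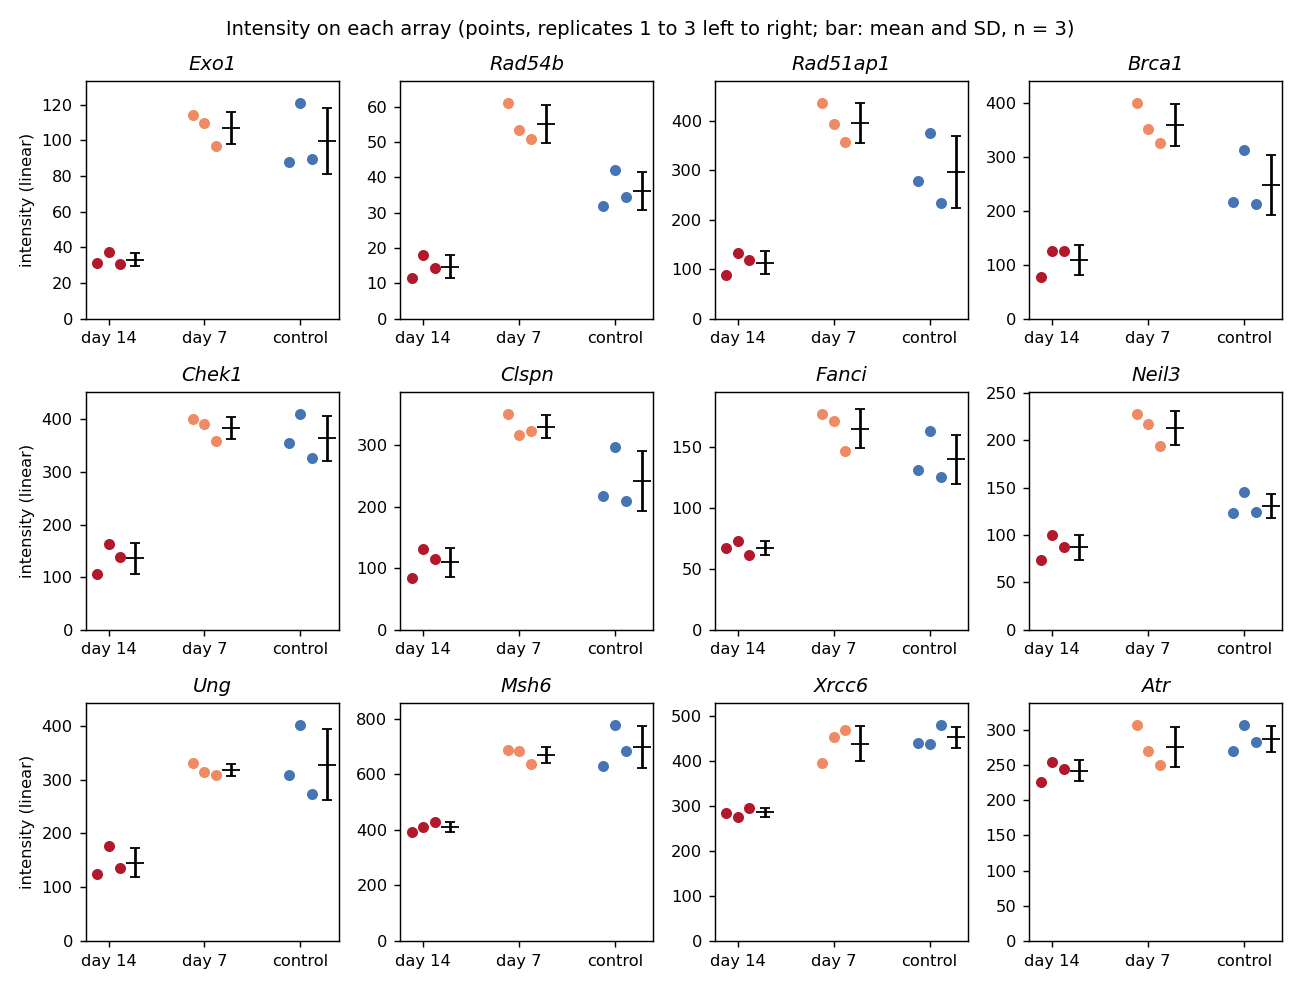
Intensity on each array, on a linear scale from 0, of 12 genes chosen from the 6 pathways, with day 14 on the left, then day 7 and control. Points are arrays, and the bar beside them gives the mean and SD of the group (n = 3); the day 14 points lie below all others in 11 of the 12 panels, and in the Atr panel day 14 and day 7 overlap.

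At day 7 few of these genes passed the test against control. Neil3 was the only 1 of the 37 that passed as higher and 0 passed as lower (limma, n = 3), against 2.21% higher and 1.13% lower over all genes tested. An unadjusted p under 0.05 was found in 12 of the 37 (32.4%) and in 19.8% of all genes. The median log2 change was 0.10, with 24 positive and 13 negative values, against a median of 0.01 over all genes. Groups did not overlap in 9 genes that were higher and 2 that were lower at day 7, where 15.2% and 11.3% of all genes did so. The positive values were larger in homologous recombination (median 0.28) and the Fanconi genes (0.20) than in base excision (0.10), checkpoint (0.08), mismatch (0.02) and end joining genes (-0.05); the differences between pathways were not tested. The day 7 counts depended on the arrays: Neil3 lost its call when control replicate 3 or day 7 replicate 1 was left out, and likewise for day 7 replicate 2, while leaving out control replicate 2 gave 3 genes and leaving out day 14 replicate 1 or 2 gave 2.

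**Figure D3:**
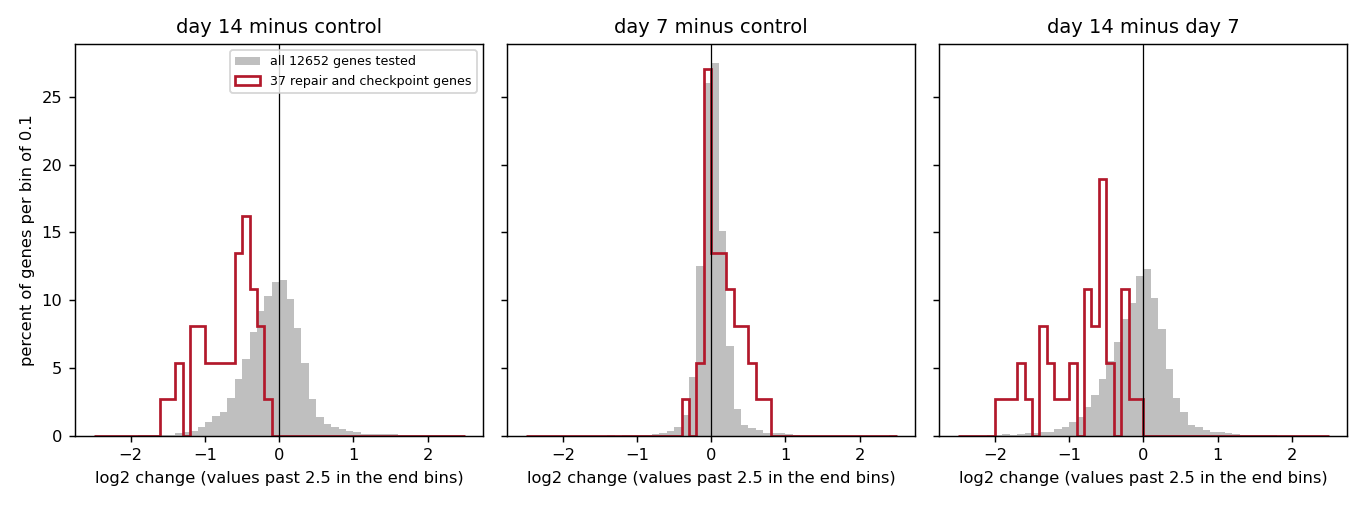
Share of genes by log2 change for the 37 repair genes and for all 12652 genes tested, in the comparisons of day 14 with control, day 7 with control and day 14 with day 7. The repair genes centre at -0.60, 0.10 and -0.71, and all genes at -0.06, 0.01 and -0.06; values beyond the axis are counted in the end bins.

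Between the leukemic stages, 35 of the 37 were lower at day 14 than at day 7 and 0 were higher (limma, n = 3), against 33.6% and 17.4% of all genes tested. The median log2 difference was -0.71, against -0.06 over all genes. The estimate for Rad54b was -1.92 (SE 0.16, adjusted p = 1.9e-05), with 2 of its 3 day 14 arrays below the filter on dim probe sets, beside those for Rad51ap1 (-1.82), Brca1 (-1.74), Exo1 (-1.70) and Clspn (-1.61). By pathway the medians were -1.22 in base excision, -1.01 in homologous recombination, -0.68 in the Fanconi genes, -0.64 in mismatch repair, -0.61 in end joining and -0.54 in the checkpoint genes. All 6 Fanconi genes passed here, Fancd2 with -0.77 (adjusted p = 0.0007) and Fancc with -0.29 (adjusted p = 0.026), although the dimmer Fancc probe set gave 0.29. Atr (-0.19, adjusted p = 0.099) and Trp53bp1 (-0.08, adjusted p = 0.4) did not pass. A dim Atr probe set gave 0.42 (adjusted p = 0.048, limma over all probe sets, n = 3). It averaged 20.7 at day 14 and 15.4 at day 7, the latter near the filter on dim probe sets. A further Atr probe set, at means of 63.3 and 66.8, gave -0.07.

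Both comparisons share the day 14 arrays, so their values are given side by side. In 32 of the 37 genes day 14 was lower than control and than day 7 with both tests passed, as it was in 28.4% of all genes. All 37 had their lowest group mean at day 14, against 51.1% of all genes, and 24 (64.9%) had their highest at day 7 and lowest at day 14, against 28.2%. Groups did not overlap in 35 genes between day 14 and control and in 36 between day 14 and day 7, where 37.3% and 38.6% of all genes were lower without overlap.

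Of 74 further repair genes measured outside the 38, 47 (63.5%) were lower and 3 higher at day 14 than in control, with a median log2 change of -0.39. Over all genes tested 34.1% were lower and 18.3% higher. Rad1, a subunit of the checkpoint clamp, averaged 56.7 ± 9.22 at day 14, 162 ± 7.56 at day 7 and 170.2 ± 25.5 in control (SD, n = 3 each), a day 14 change of -1.59 (adjusted p = 1.4e-05, limma). Timeless, which travels with the fork, averaged 189 ± 25, 497 ± 42.4 and 485 ± 29.0 in the same order and changed by -1.37. Rpa2, a subunit of the protein that coats single strands, changed by -1.21, Rad51b by -1.17 and Ube2t, the conjugating enzyme for the Fanconi clamp, by -1.08. Smug1, a uracil glycosylase, and Fen1, a flap nuclease, changed by -1.07 and -0.83 in base excision repair, and Mlh3 and Pms1, in mismatch repair, by -1.13 and -0.62.

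Nucleotide excision repair, which removes bulky lesions from the helix and is represented by none of the 38, had 4 of 12 genes (33.3%) lower and 1 higher at day 14, with a median of -0.14, a share lower that is near the 34.1% of all genes. Xpc, its damage sensor, averaged 543 ± 33.8 at day 14, 663 ± 52.0 at day 7 and 790.1 ± 57.4 in control, a change of -0.54, and Ercc6, which acts at stalled transcription, was higher by 0.42 (adjusted p = 0.032, limma, n = 3). The other genes that were higher at day 14 were Sfr1, a recombination cofactor (0.38), and Polm, an end joining polymerase (0.25). Among 5 further end joining genes 1 was lower and 1 higher, where 34.1% and 18.3% of all genes tested were. At day 7, 4 of the 74 were higher than in control and 1 (1.35%) was lower, Smug1 (-0.40), where 2.21% and 1.13% of all genes tested were. The 4 were Cdc25c, a phosphatase that starts mitosis (0.97), H2ax, the histone that marks breaks (0.91), Gen1, a nuclease that cuts joined chromosomes (0.72), and Ticrr, a replication initiator (0.55).

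Of 18 tested transcripts that p53 is known to induce, 10 were higher, 1, Sesn1, was lower and 7 did not pass at day 14 against control, where 18.3% of all genes were higher and 34.1% lower. Cdkn1a, the cell cycle inhibitor p21, averaged 1851 ± 193 at day 14, 1264 ± 187 at day 7 and 780.2 ± 71.9 in control (SD, n = 3 each). It was higher than control by 1.25 at day 14 (adjusted p = 3.2e-05, limma) and by 0.69 at day 7 (adjusted p = 0.016). Gadd45b, a stress-induced growth arrest gene, was higher at day 14 by 1.93, and Pmaip1 and Bbc3, which promote cell death, by 1.36 and 1.14.

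**Figure D4:**
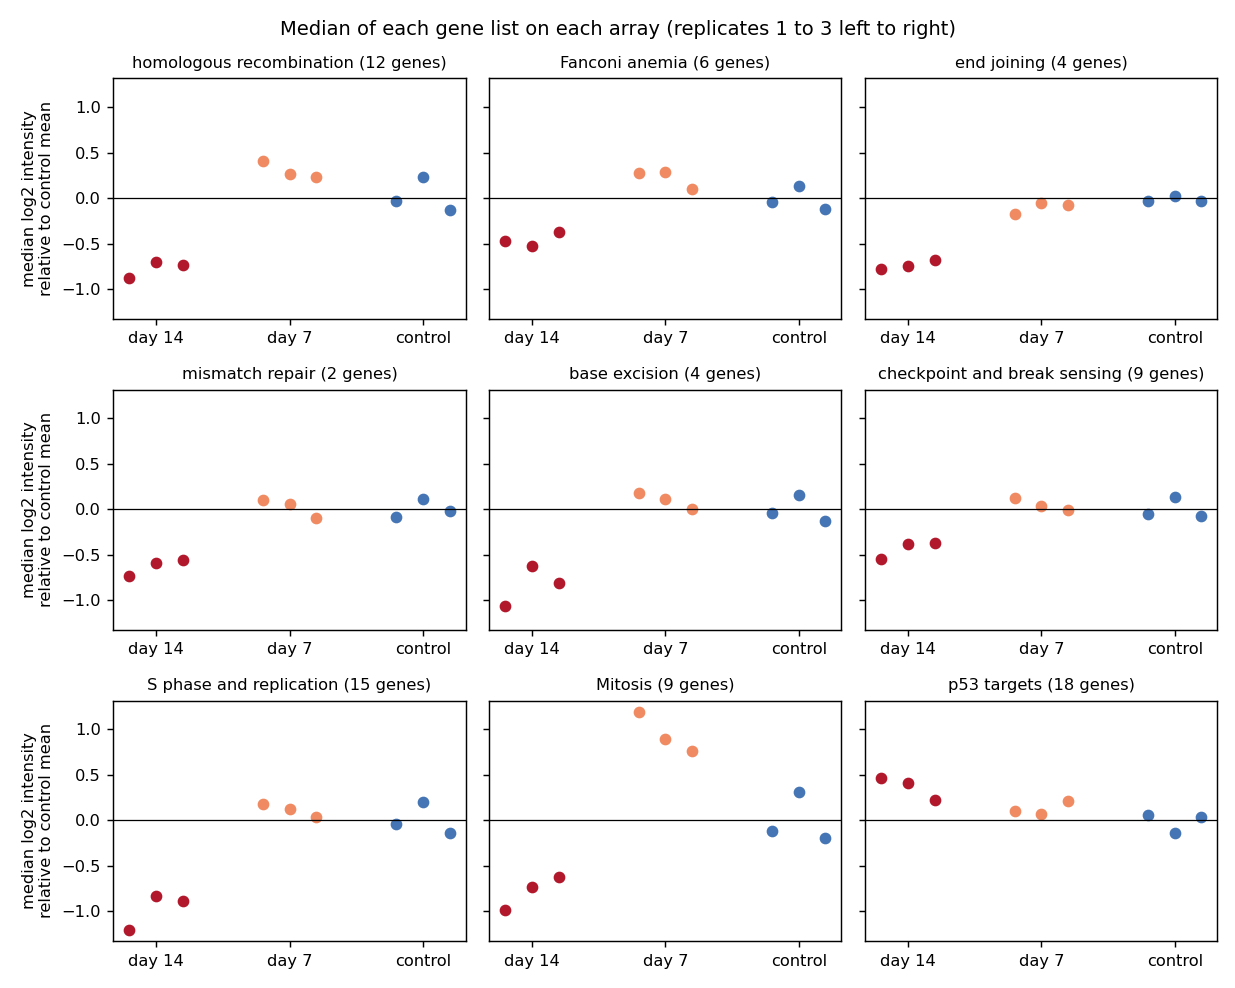
Median log2 intensity of each gene list on each array, relative to the mean of the control arrays, for the 6 repair pathways and for genes of S phase, mitosis and p53 targets. Points are the 3 arrays of day 14, day 7 and control; the repair lists and the S phase list lie below all controls at day 14. At day 7 the mitosis list lies above the controls. Homologous recombination (0.234 to 0.41) lies barely above the highest control (0.226), and end joining (-0.18 to -0.049) barely below the lowest (-0.038).

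Cell cycle genes moved in the same samples. All 15 genes of the S phase list were lower at day 14 than in control (median -0.97), and 0 passed at day 7 (median 0.09). All 9 measured genes of the mitosis list were lower at day 14 (median -0.80) and higher at day 7 (median 0.99). Over all genes tested 34.1% were lower at day 14 and 2.21% higher at day 7. Mcm5, a subunit of the replication helicase, averaged 1039 ± 129 at day 14, 2124 ± 135 at day 7 and 2021 ± 131 in control, and Mki67, a marker of dividing cells, 749.6 ± 76.7, 1709.8 ± 199 and 1076 ± 213 in the same order. Cdk1, the kinase that drives mitosis, changed by -1.39 at day 14 and by 0.65 at day 7 (adjusted p = 0.036, limma, n = 3). The part of these lists in the changes of the repair genes was not tested. The arrays within a group also kept an order: day 14 replicate 1 was the lowest of its group in 26 of the 37 repair genes, day 7 replicate 1 the highest in 28 and control replicate 2 the highest in 28. The S phase and mitosis medians on these 3 arrays were likewise the lowest, highest and highest of their groups. So was the 75th percentile of all probe sets on each array. It was 114.6 on day 14 replicate 1, against 119.2 and 118.9 on the others of that group. At day 7 it was 130.2 on replicate 1, against 128.5 and 127.7. In control it was 128.5 on replicate 2, against 126.8 and 128.2. The source of this order was not tested.

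All 7 measured LKS+ markers were above background on all 9 arrays; Sca-1, which the sort used, is not analysed here. Cd48, a surface marker of progenitors, and Procr, a surface receptor of stem cells, were lower at day 14 than in control, by log2 changes of -0.85 (adjusted p = 9.8e-05, limma, n = 3) and -0.43 (adjusted p = 0.012). Kit, Cd34 and Flt3 did not pass, with changes of -0.03, -0.09 and -0.08, nor did Slamf1 and Ptprc. Markers of other cells also moved. The summed intensity of 5 B cell genes was 218 to 325 at day 14, 150 to 202 at day 7 and 95.5 to 103 in control, with 4 of 5 higher at day 14, and that of 5 megakaryocyte genes was 1468 to 1750 at day 14, 682 to 730 at day 7 and 542 to 622 in control, with 4 of 5 higher. Among 7 mature myeloid genes 1 was higher and 2 were lower, and among 3 tested T cell genes 2 were higher, and of 2 tested erythroid genes 0 passed. The B cell genes Cd79a and Pax5 stayed near the filter on dim probe sets, at means of 15.6 and 13.4 at day 14, 14.6 and 15.4 at day 7, and 12.1 and 12.7 in control. The part of all these markers in the repair gene changes was not tested.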

How the data were processed

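The values used were the authors' deposited intensity values on a linear scale. The series' design text gives amplification of the RNA over 2 cycles, hybridisation to Affymetrix Mouse Genome 430 2.0 arrays and normalization with the Microarray Analysis Software 5.0. A doubt remains about that step, because 51.64% of probe sets (23255 of 45037) hold an equal value on at least 2 arrays, so scaling was varied. Such amplification reads the 3′ end of a transcript best, and probe sets far from it can be low.

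The array labels gave the 3 groups. Platform annotation named the genes. Intensities below the table's 20th percentile (5.81) were set to it ahead of the log2 transform, and genes were tested whose probe set exceeded the 40th percentile of its array (14.1 to 15.2) on at least 3 arrays. A probe set below that percentile on every array of a group has only a bound there, taken as the brighter group's mean against, per array of the dimmer group, the higher of that percentile and its own value. The number of arrays limits the precision. Per-array correlations within groups were 0.994 to 0.997.

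One linear model over all 9 arrays, with no covariates, was fitted in limma 3.58.1 (R 4.3.3) with moderated two-sided tests and Benjamini-Hochberg adjustment over 12652 genes. The steps were tested on simulated data. Alternatives changed the scaling, the floor, the filter, the choice of probe set, the groups fitted, the variance prior, array weights, the replicate block and the size of change, and left out each array. Values were given for up to 3 called genes per pathway, direction and comparison, or the one with the smallest p where none was called, for genes called higher, and for genes whose probe sets differed by over 0.5 in a log2 change. Further values were added for the remaining genes to account for all of them. Mki67, Cdk1, Mcm5, Cdkn1a, Kit, Flt3 and Cd34 were named as context. Of the further repair genes and p53 targets, up to 2 called per list, direction and comparison were to be named; Bbc3, Sesn1 and Ticrr were named under this rule or as the remainder of a short count. The 38 genes, the other lists and the naming rule were chosen with earlier results of these data known. Replicate numbers were checked for pairing and did not pair the samples.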

Additional observations from a re-analysis of the deposited data

Results flagged for a closer look

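The change from control differed between the leukemic stages, by the test of day 14 against day 7 itself, in 35 of the 37 repair genes (limma, adjusted p below 0.05, n = 3). In each of them day 14 was the lower. By the same test 33.6% of all genes tested were lower at day 14 and 17.4% higher. Among the genes described above, the log2 difference of day 14 minus day 7 in homologous recombination was -1.92 for Rad54b, -1.82 for Rad51ap1, -1.74 for Brca1, -1.70 for Exo1 and -0.64 for Rad51c. In the Fanconi pathway it was -1.30 for Fanca, -1.30 for Fanci, -0.77 for Fancd2, -0.59 for Fancl and -0.29 for Fancc. In end joining it was -0.77 for Xrcc5, -0.62 for Xrcc6 and -0.60 for Lig4, which at day 14 was not well above background and so is only at least 1.03-fold lower, and in mismatch repair -0.71 for Msh6 and -0.58 for Pms2. In base excision it was -1.30 for Neil3, -1.29 for Lig1 and -1.14 for Ung, and among the checkpoint genes -1.61 for Clspn, -1.52 for Chek1 and -0.68 for Nbn. By the brightest probe sets, Neil3 alone passed against control with opposite directions at the stages. The other tested Neil3 probe set did not pass at day 7 (0.26, adjusted p = 0.48, limma over all probe sets, n = 3). A dimmer Fancd2 probe set passed in both directions, with -0.63 at day 14 and 0.64 at day 7. Groups of 3 arrays were too small to look for single arrays far from the others.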

How the results depend on the processing

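Of the 34 genes called lower at day 14 than in control, 30 were called in each of up to 20 other settings that gave them a value, leaving aside the 2-fold minimum, and of the 35 called between day 14 and day 7, 30 were. The others were Bard1, Atr, Atm and Trp53bp1 against control, and Fancc, Fancm, Parp1, Atm and Rad52 against day 7; leaving out single arrays ended the calls of Bard1, Atr, Fancc, Fancm and Parp1. With each array left out in turn, 32 to 35 genes were lower at day 14 than in control and 32 to 36 than at day 7, and 5651 to 6422 and 5475 to 6569 genes were called in all. Requiring a change of at least 2-fold left 10 and 13 of the repair genes, all of them lower. Of all genes it left 411 and 446 in either direction, of which 225 (1.78% of those tested) and 328 (2.59%) were lower. At an equal 75th percentile, 42.6% of the genes called at day 14 against control were lower, with quantile normalization 54.9%, and as deposited 65.1%; between day 14 and day 7 the shares were 42.2%, 56% and 65.9%.

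The comparison of day 7 with control was the least stable. In place of 1 repair gene higher, 2 were called with an offset of 32, with a stricter filter, with the compared groups alone or with a trended robust prior, 12 with array weights, and 0 with the mean of probe sets, with no filter or at 2-fold; array weights also called 1 lower. Leaving out arrays gave 0 to 3. All genes called numbered 423, against 703 with the offset, 59 with no filter, 674 with the trended prior, 2181 with array weights, 44 at 2-fold and 78 to 552 with arrays left out. The replicate numbers did not pair the samples (correlations of deviations from -0.19 to 0.12); with the replicate number as a block 280 genes were called at day 7, and 33 and 35 repair genes were lower at day 14 than in control and than at day 7.

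Directions turned for some genes, among them Brca1 and Fanca, whose changes were large, under other probe sets. At the 75th percentile Trp53bp1 was 0.0552 between day 14 and day 7. With the mean of probe sets Fancc was 0.10 at day 14 against control and 0.043 against day 7, Atr 0.0542 between the days and Pms2 -0.073 at day 7. At day 7 array weights gave 0.065 for Xrcc5, 0.0013 for Xrcc6, 0.0481 for Msh6 and 0.0035 for Ung. With arrays left out in turn the day 7 values ran from -0.12 to 0.0581 for Xrcc5, from -0.0973 to 0.0269 for Xrcc6, from -0.13 to 0.0244 for Msh6, from -0.15 to 0.13 for Ung and from -0.14 to 0.0076 for Atr, and were positive without control replicate 2 (Xrcc5, Msh6, Ung), day 7 replicate 1 (Xrcc5 at 0.0194, Xrcc6) or day 7 replicate 3 (Atr). Other probe sets gave 0.34 (against control) and 0.25 (against day 7) at day 14 for Brca1, 0.0735 for Fanca, 0.0289 and 0.42 against control, 0.13 and 0.29 against day 7, and -0.10 at day 7 for Fancc, -0.30 and -0.0134 at day 7 for Pms2, and 0.42 for Atr and 0.0826 for Trp53bp1 between the days. Of 39 other tested probe sets, 35 kept the sign of the brightest at day 14 against control. The cause was not tested in any of these. Dim genes such as Bard1 and Lig4 lie near background at day 14, which limits their changes to bounds.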
